A study of Sus scrofa with 6 samples.

Results

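ADCY2, ADCY4, ADCY5, PDE3A, NPR1 and CREB3L2 make up a small group of genes around the synthesis, breakdown and downstream reading of cyclic AMP. They were chosen by name, as the rows of the deposited mRNA table whose identifiers carry these symbols in the lists of mRNAs supplied with the study, which gave 6 of the 14900 mRNAs. All 6 stand in the list that the study made by testing these same samples, so their shared direction is not independent evidence. The skin, 8 mm deep, came from 3 Bama pigs, females of 2 years and of a Chinese breed that is black at the head and hip and white between. From each pig, RNA-seq of polyadenylated RNA was run on 1 sample of white skin from the back and 1 sample of black skin from the buttock, so that each group had 3 samples and skin color and body site differed together. Expression is in FPKM, fragments scaled to transcript length and to the mapped fragments of the library, and how many reads lie behind a value is unknown.

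Cyclic AMP is made from ATP by adenylyl cyclases, membrane enzymes switched by G proteins, and is hydrolysed by phosphodiesterases. It acts through protein kinase A, which phosphorylates the transcription factor CREB, and through the exchange factor EPAC. In melanocytes this is the route by which the melanocortin receptor MC1R raises MITF and pigment synthesis, while in vessels and fat cyclic AMP governs barrier function, smooth muscle tone and lipolysis. Of the 6 genes, ADCY2, ADCY4 and ADCY5 encode adenylyl cyclases and PDE3A encodes a phosphodiesterase that hydrolyses cyclic AMP and is inhibited by cyclic GMP. NPR1 makes cyclic GMP and not cyclic AMP, as the receptor of atrial and brain natriuretic peptides. CREB3L2 is a CREB-family factor held in the membrane of the endoplasmic reticulum and released by proteolysis, a mode of control that differs from that of CREB itself.

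All 6 genes had a lower FPKM in white than in black skin of all 3 pigs, and for each of them the 3 white values lay below the 3 black values, a separation in this direction that 25.7% of all mRNAs also had. The FPKM of black skin was between 2.66 and 5.07 times that of white skin. In the limma fit over all mRNAs, NPR1, ADCY2 and PDE3A were down-regulated in white skin past both thresholds (a Benjamini-Hochberg adjusted p under 0.05, with the log2 fold change beyond 1 in size), which is 3 of 6 genes against 3.62% of all mRNAs in this direction. ADCY4, ADCY5 and CREB3L2 did not pass. Because the genes come from a list called on these samples, nothing is read from that count. In bulk skin, fewer cells of a type and less RNA per cell cannot be told apart.

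**Figure D1:**
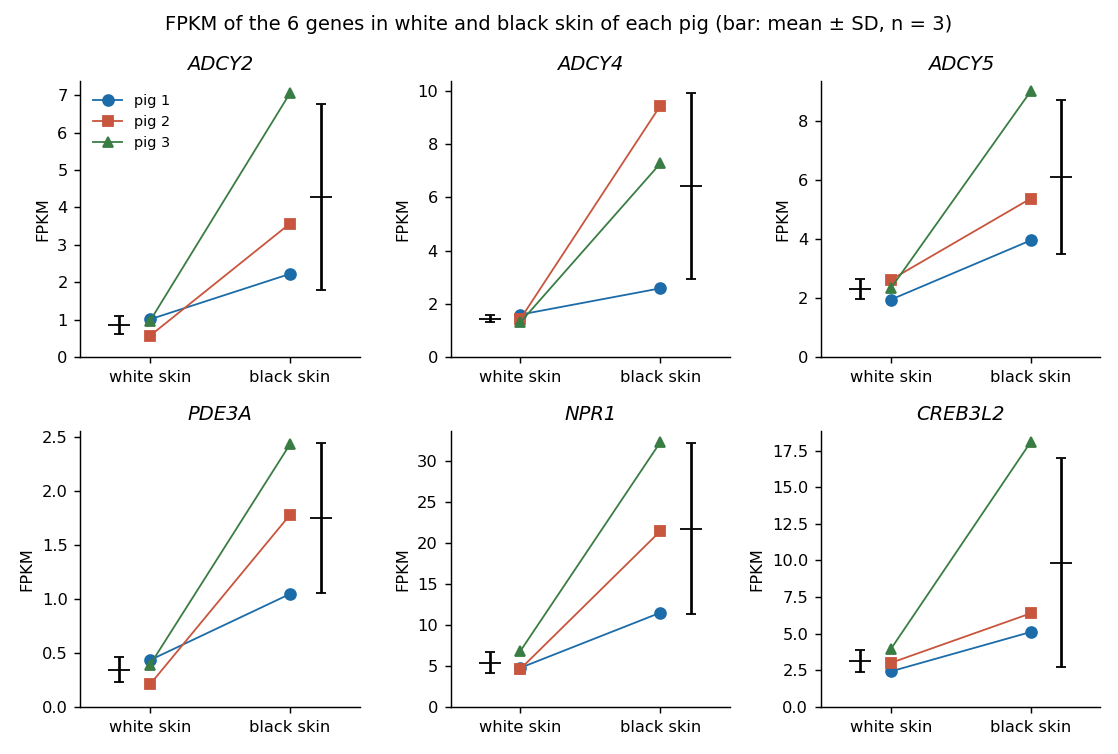
FPKM (linear axis from 0, its scale set for each gene) of the 6 genes in white and black skin, with a line joining the samples of each pig and a bar for the mean ± SD (n = 3). Every line rises from white to black skin, and black skin of pig 1 is the lowest black sample in all 6 panels.

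ADCY2 encodes a cyclase that the beta-gamma subunits of G proteins can stimulate (ENSSSCG00000017101, chromosome 16 from 74305729 to 74729999 of Sscrofa11.1 in RefSeq). Its FPKM was 1.01, 0.577 and 0.977 in white skin of pigs 1, 2 and 3 and 2.23, 3.57 and 7.05 in black skin. The white samples were close to each other, whereas the black samples lay far apart. The log2 fold change of white against black skin on log2(FPKM + 0.5), a scale that understates the change of low genes, was -1.71 (standard error 0.40, limma, adjusted p = 0.0470). With a pseudocount of 1 it did not pass (limma, adjusted p = 0.0527). Of all mRNAs, 2.29% had a lower log2 fold change.

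ADCY4 belongs to the same branch of the cyclase family as ADCY2 (ENSSSCG00000001988, chromosome 7 from 74955410 to 74972440). It stood at 1.60, 1.44 and 1.32 FPKM in white skin of pigs 1, 2 and 3 and at 2.59, 9.45 and 7.28 in black skin. It was the exception among the 6 genes in having its highest value in black skin of pig 2, and black skin of pig 1 lay nearer to the white samples than to the other black samples. Its log2 fold change of -1.67 (standard error 0.44) did not reach the threshold (limma, adjusted p = 0.0593). With the pig as a block it passed (limma, adjusted p = 0.0476), and so it did without black skin replicate 1 (log2 fold change -2.17, limma, adjusted p = 0.0301).

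ADCY5 encodes a cyclase inhibited by calcium and by inhibitory G proteins (ENSSSCG00000027952, chromosome 13 from 136965746 to 137133795). Its FPKM was 1.95, 2.62 and 2.33 in white skin of pigs 1, 2 and 3 and 3.96, 5.37 and 9.01 in black skin. The groups did not overlap, yet the gap between the highest white and the lowest black sample was narrower than the spread of the black samples. The log2 fold change of -1.17 (standard error 0.33) did not pass (limma, adjusted p = 0.0714, and 0.0513 with the pig as a block).

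PDE3A encodes the phosphodiesterase of the group (ENSSSCG00000028662, chromosome 5 from 52413503 to 52737771) and had the lowest FPKM of the 6 genes. It had 0.435, 0.211 and 0.393 FPKM in white skin of pigs 1, 2 and 3 and 1.05, 1.78 and 2.44 in black skin. No white sample passed the 0.5 FPKM that the authors asked of an expressed mRNA in at least 1 sample, and all 3 black samples did. The log2 fold change was -1.38 (standard error 0.32, limma, adjusted p = 0.0460). The call was lost when mRNAs with a mean FPKM under 1 were left out (limma, adjusted p = 0.0583).

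NPR1 (ENSSSCG00000006572, chromosome 4 from 95957220 to 95974253) was the most highly expressed of the 6 genes in both skins. Its FPKM was 4.77, 4.64 and 6.83 in white skin of pigs 1, 2 and 3 and 11.5, 21.4 and 32.2 in black skin. Pig 3 had the highest value in each skin. The log2 fold change was -1.81 (standard error 0.38, limma, adjusted p = 0.0346), and 1.72% of all mRNAs had a lower one. That share was 2.52% for ADCY4, 5.29% for PDE3A, 5.85% for CREB3L2 and 8.53% for ADCY5. The genes come from a list called on these samples, so nothing is read from these ranks.

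CREB3L2 (ENSSSCG00000016520, chromosome 18 from 11533184 to 11666132) stood at 2.42, 3.00 and 3.94 FPKM in white skin of pigs 1, 2 and 3 and at 5.11, 6.38 and 18.1 in black skin. Black skin of pig 3 was far above the other black samples, which lay nearer to the white ones than to it. The log2 fold change of -1.33 (standard error 0.45) did not pass (limma, adjusted p = 0.108). The same pig was also the highest of the white samples, and with the pig as a block CREB3L2 passed (limma, adjusted p = 0.0464). Without black skin replicate 3 the log2 fold change moved to -0.80 (limma, adjusted p = 0.201).

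Between pigs, the ratio of black to white skin was smallest in pig 1 for ADCY2, ADCY4, ADCY5, PDE3A and NPR1, where it lay between 1.62 and 2.41, and for CREB3L2 it was 2.11 in pig 1 and 2.12 in pig 2. In pig 3 the ratios were 7.21 for ADCY2, 5.53 for ADCY4, 3.86 for ADCY5, 6.21 for PDE3A, 4.72 for NPR1 and 4.58 for CREB3L2. In pig 2 the ratios were 2.05 for ADCY5, 4.62 for NPR1, 6.19 for ADCY2 and 6.55 for ADCY4. That of PDE3A, 8.44, divides by a white value of 0.211 FPKM, under the 0.5 FPKM of an expressed mRNA. Each ratio rests on 1 sample of each skin, and whether the 6 genes moved by a common factor within a pig was not tested. By mean FPKM the order in white skin was NPR1, CREB3L2, ADCY5, ADCY4, ADCY2 and PDE3A. The sample ranges of neighbours in that order overlapped for CREB3L2 and ADCY5 and for no other pair. In black skin the order was NPR1, CREB3L2, ADCY4, ADCY5, ADCY2 and PDE3A, and the ranges of every pair of neighbours overlapped.

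The summed FPKM of ADCY2, ADCY4 and ADCY5 was 4.56, 4.64 and 4.63 in white skin of pigs 1, 2 and 3, a spread of 0.0404 (SD, n = 3) around 4.61, and 8.77, 18.4 and 23.3 in black skin, 16.8 ± 7.41 (SD, n = 3). Each of the 3 genes already had all white values below all black values, so their sum had to separate the skins, and no p is given for it. Ratios and shares within a library, unlike this sum, do not depend on how libraries are scaled to each other. The ratio of PDE3A to this cyclase sum was 0.0752 ± 0.0263 (SD, n = 3) in the white samples and 0.107 ± 0.0115 in the black ones, with the highest white sample at 0.0953 and the lowest black sample at 0.0969 (two-sided exact permutation p = 0.1, the lowest that 3 against 3 samples can give, and 0.2 after Benjamini-Hochberg adjustment over 4 quantities). The cyclase sum was among the 4, with a p fixed by the choice of genes, so nothing is read from the adjusted values. With 0.1 added to each FPKM the log2 difference of this ratio went from -0.57 to -0.33 (two-sided exact permutation p = 0.4), and without white skin replicate 2 it was -0.24. The ratio of NPR1 to the cyclase sum was 1.17 ± 0.263 (SD, n = 3) and 1.29 ± 0.111, which overlapped (two-sided exact permutation p = 0.5, adjusted 0.6). The share of ADCY4 in the cyclase sum was 31.5% ± 3.35 (SD, n = 3) in the white samples and 37.3% ± 12.2 in the black ones, where it was 51.4% in pig 2 and close to the white samples in pigs 1 and 3 (two-sided exact permutation p = 0.6, adjusted 0.6). Without black skin replicate 2 the difference in this share turned to the opposite direction (0.05 on the log2 scale, from -0.20).

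The mRNA table lists 7 of the 10 adenylyl cyclases looked for, and ADCY1, ADCY8 and ADCY10 were not analysed here. Of the 7, 1 was called, ADCY2, against 6.24% of all mRNAs in either direction. In the blocked fit 2 of the 7 were called, both lower in white skin, against 6.42% of all mRNAs in this direction. After quantile normalization 0 were, against 1.46%. The other 4 are not among the 6 genes, which were picked from a list called on these samples, and no test set them against ADCY2, ADCY4 and ADCY5. ADCY7, a cyclase common in blood cells, stood at an FPKM of 9.03 ± 2.08 (SD, n = 3) in the white samples and 5.79 ± 0.843 in the black ones, with every white sample above every black sample, as for 9.62% of all mRNAs, and its log2 fold change, 0.58, missed the threshold (limma, adjusted p = 0.189). ADCY6, the closest relative of ADCY5, had 6.24 ± 0.707 and 7.27 ± 4.42 FPKM (log2 fold change -0.06, limma, adjusted p = 0.926). ADCY9 had 3.04 ± 0.572 and 4.71 ± 1.62 FPKM (log2 fold change -0.52, limma, adjusted p = 0.322). ADCY3 had 1.71 ± 0.144 and 2.14 ± 1.02 FPKM (log2 fold change -0.19, limma, adjusted p = 0.724). The median log2 fold change of all mRNAs was -0.31 with FPKM as deposited and -0.03 with quantile normalization, under which ADCY3 (0.23) and ADCY6 (0.26) turned to the opposite direction.

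The sum over the 7 cyclases was 24.1, 27.6 and 22.2 FPKM in white skin and 22.4, 38.4 and 49.4 in black skin of pigs 1, 2 and 3, so that black skin of pig 1 lay among the white samples (two-sided exact permutation p = 0.3). ADCY2, ADCY4 and ADCY5 together held 18.9% ± 2.00 (SD, n = 3) of it in the white samples and 44.8% ± 4.88 in the black ones, and ADCY7 held 36.4% ± 4.86 in white skin and 17.6% ± 7.43 in black skin. In white skin ADCY7 had the largest share in every pig. These shares were added after the values were seen and set genes picked from a list called on these samples against genes that were not, so they are a description without a test. With the 7 cyclases as the denominator, the ratio of NPR1 to the sum was 0.224 ± 0.0734 (SD, n = 3) in the white samples and 0.574 ± 0.0713 in the black ones, and that of PDE3A was 0.0145 ± 0.00590 and 0.0475 ± 0.00155, given as a description for the same reason.

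**Figure D2:**
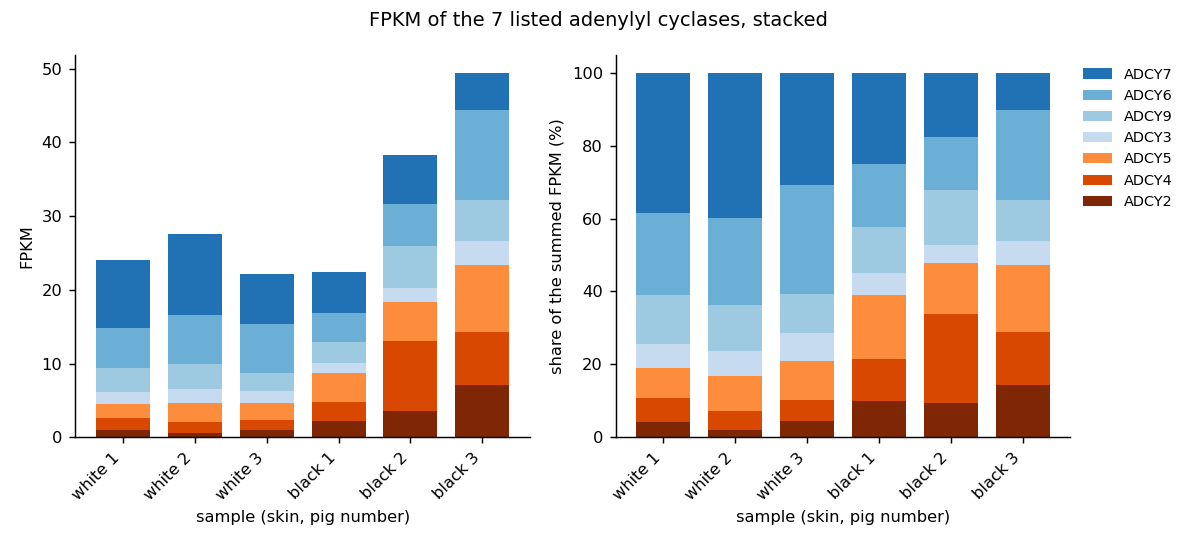
FPKM of the 7 adenylyl cyclases of the mRNA table stacked for each sample (left, axis from 0) and as a percent of their sum (right). The orange to brown parts, ADCY2, ADCY4 and ADCY5, widen from 18.9% of the sum in white skin to 44.8% in black skin, and ADCY7 at the top narrows from 36.4% to 17.6%.

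On the side of breakdown, the table lists 16 of the 23 cyclic nucleotide phosphodiesterases looked for, and 4 of these were called, all lower in white skin (PDE3A among them), against 6.24% of all mRNAs in either direction. In the blocked fit 4 of the list were called lower and 1 higher, and after quantile normalization 2 and 1. Over all mRNAs, these fits called 6.42% and 1.46% lower, and 1439 and 700 of 14900 in either direction. The median log2 fold change of the 16 was -0.82, against -0.31 over all mRNAs. PDE2A, which cyclic GMP stimulates, stood at an FPKM of 2.07 ± 0.476 (SD, n = 3) in the white samples and 13.6 ± 7.91 in the black ones (log2 fold change -2.34, limma, adjusted p = 0.0209). PDE3B, the other gene of the PDE3 family and the main one of fat cells, had 0.783 ± 0.339 and 4.29 ± 2.68 FPKM (log2 fold change -1.80, limma, adjusted p = 0.0479). PDE3B did not pass with a pseudocount of 1 (limma, adjusted p = 0.0534), upper-quartile scaling, quantile normalization or any library left out. PDE1A, activated by calcium and calmodulin, had 2.36 ± 0.248 and 9.64 ± 3.42 FPKM (log2 fold change -1.76, limma, adjusted p = 0.0260). PDE4D, which is specific for cyclic AMP and was named after its values were seen, was the highest of the list in the other direction, at 4.03, 9.95 and 9.87 FPKM in white skin of pigs 1, 2 and 3 and 1.38, 2.08 and 3.79 in black skin (log2 fold change 1.52, limma, adjusted p = 0.0748). It passed in the blocked fit (limma, adjusted p = 0.0308) and after quantile normalization (limma, adjusted p = 0.0427).

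Among the genes of cyclic GMP, of the 12 listed genes of that group (17 were looked for), 4 were called lower (NPR1, a gene of the study's list, among them) and 1 higher in white skin, against 3.62% and 2.62% of all mRNAs. With quantile normalization 1 was called lower and 1 higher, and in the blocked fit 5 lower and 1 higher. Over all mRNAs, these fits called 1.46% and 6.42% lower, and 700 and 1439 of 14900 in either direction. NOS3, the nitric oxide synthase of endothelium, stood at an FPKM of 1.24 ± 0.117 (SD, n = 3) in the white samples and 13.0 ± 6.81 in the black ones (log2 fold change -2.79, limma, adjusted p = 0.0192). The subunits of the soluble guanylyl cyclase that nitric oxide activates, GUCY1A1 and GUCY1B1, named after their values were seen, were called as well, with log2 fold changes of -1.47 and -1.49. Of the other natriuretic peptide receptors, NPR2 had 3.43 ± 0.191 and 8.31 ± 3.98 FPKM (log2 fold change -1.05, limma, adjusted p = 0.113), and NPR3, which clears the peptides, had 1.19 ± 0.455 and 2.74 ± 1.78 (log2 fold change -0.78, limma, adjusted p = 0.328). NPR2 passed without black skin replicate 1 (limma, adjusted p = 0.0417). PRKG1, the kinase that cyclic GMP activates and that relaxes smooth muscle, went the other way, at 10.9, 15.6 and 12.5 FPKM in white skin of pigs 1, 2 and 3 and 0.524, 1.34 and 4.10 in black skin (log2 fold change 2.70, limma, adjusted p = 0.0278).

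Upstream of the cyclases, 26 of 36 receptors and ligands were listed. Of these, 3 were called lower and 1 higher in white skin, against 3.62% and 2.62% of all mRNAs. The blocked fit called 8 lower and 1 higher, and quantile normalization 1 and 2. Over all mRNAs, these fits called 6.42% and 1.46% lower, and 1439 and 700 of 14900 in either direction. Those lower were RAMP2 (log2 fold change -1.74), which with CALCRL forms the adrenomedullin receptor, S1PR1 (-1.67), the sphingosine phosphate receptor of endothelium, and PTH1R (-1.56), the parathyroid hormone receptor. Their adjusted p from limma was 0.0350, 0.0481 and 0.0497. S1PR1 and PTH1R did not pass with upper-quartile scaling, quantile normalization or no trend, and PTH1R did not with a pseudocount of 1 or with any library left out. ADRA2C, an adrenergic receptor that lowers cyclic AMP, stood at an FPKM of 28.4 ± 4.83 (SD, n = 3) in the white samples and 6.45 ± 4.27 in the black ones (log2 fold change 2.21, limma, adjusted p = 0.0268). MC1R, its ligand precursor POMC and GNAS were not analysed here. None of the 4 listed G protein alpha subunits was called by limma, and none had an unadjusted p below 0.05.

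Downstream, 1 of 23 listed effectors and anchors was called lower and 1 higher, against 3.62% and 2.62% of all mRNAs. After quantile normalization 0 were called lower and 2 higher, where 1.46% of all mRNAs were lower and 700 of 14900 were called in either direction. PRKAR2B and CREBBP lie outside the rule for named genes and were chosen after their values were seen. PRKAR2B, a regulatory subunit of protein kinase A abundant in fat, had a log2 fold change of -1.43, and POPDC2, a membrane protein of muscle that binds cyclic AMP, had one of 2.09. The catalytic subunit gene PRKACA differed by 0.00 on the log2 scale (standard error 0.28). Of the 14 listed genes of the CREB family and its coactivators, CREBBP alone was called (log2 fold change -1.26), against 6.24% of all mRNAs in either direction. In the blocked fit 2 of the 14 were called, both lower in white skin, against 6.42% of all mRNAs in this direction. After quantile normalization 0 were, against 1.46%. Within the CREB3 branch, CREB3L1 had 3.92 ± 2.80 (SD, n = 3) FPKM in the white samples and 7.43 ± 0.505 in the black ones (log2 fold change -1.02, limma, adjusted p = 0.153), CREB3 had 35.7 ± 5.89 and 33.3 ± 4.99, and CREB3L4 had 1.83 ± 1.28 and 0.952 ± 0.124. None of the 8 listed genes around the cleavage of CREB3L2 and the secretory pathway (SEC24D, SEC31A and others, of 11 looked for) was called by limma. Their median log2 fold change was -0.42, and 3 of them had an unadjusted p below 0.05. Nothing is read from that count, since the share of all mRNAs below that p was not calculated.

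**Figure D3:**
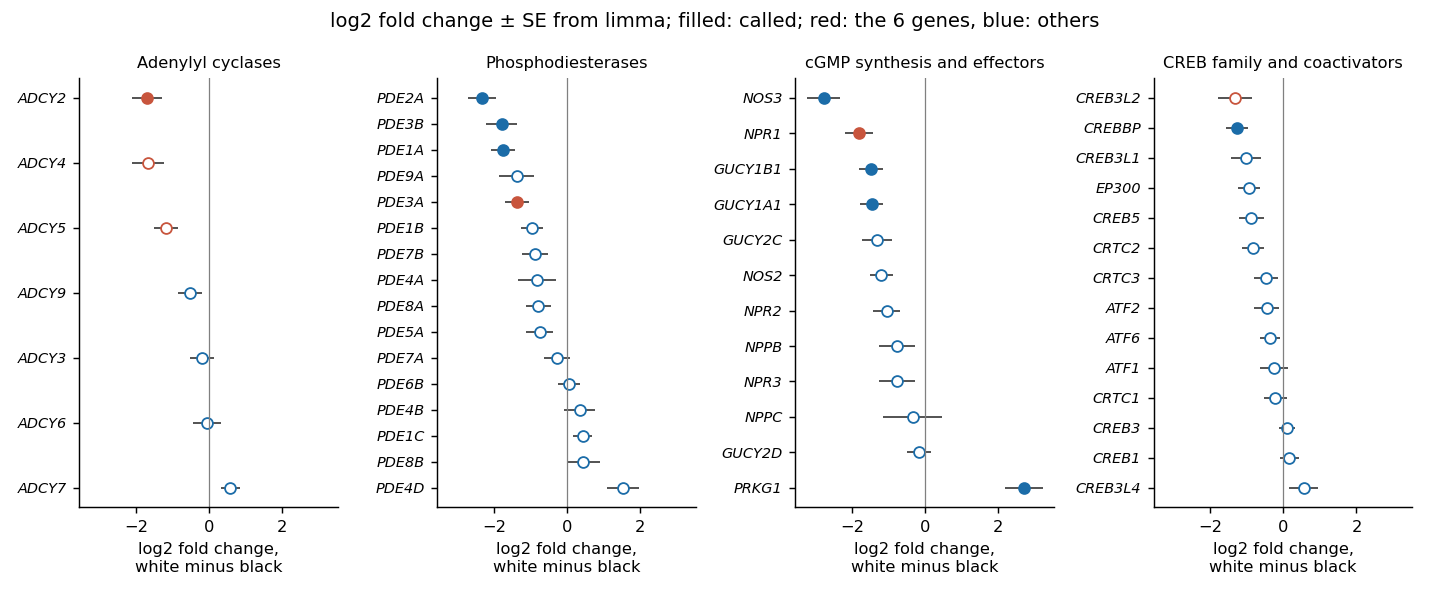
log2 fold change of white minus black skin from limma with its standard error, for every listed gene of 4 groups, filled where called and red for the 6 genes described first. The error bars of ADCY5 and ADCY9 meet, PDE3A and NPR1 lie among several genes of their groups with log2 fold changes under -1, and PRKG1 lies at 2.70.

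Over all these pathway lists without the 6 genes, 96 of 135 genes were listed, 14 of them were called (11 lower and 3 higher in white skin, against 3.62% and 2.62% of all mRNAs), and their median log2 fold change was -0.61. With quantile normalization 4 were called lower and 6 higher, so that the balance of directions turned over, whereas the blocked fit called 17 lower and 4 higher. Over all mRNAs, 539 of 930 calls were lower in white skin. It was 957 of 1439 with the pig as a block, 217 of 700 with quantile normalization and 294 of 852 with upper-quartile scaling. The 6 genes had a median of -1.52. With any 1 of the libraries other than black skin replicate 1 left out, at most 3 of the 96 were called, and without black skin replicate 1 there were 15. With upper-quartile scaling 9 of the 96 were called, against 852 of all mRNAs.

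**Figure D4:**
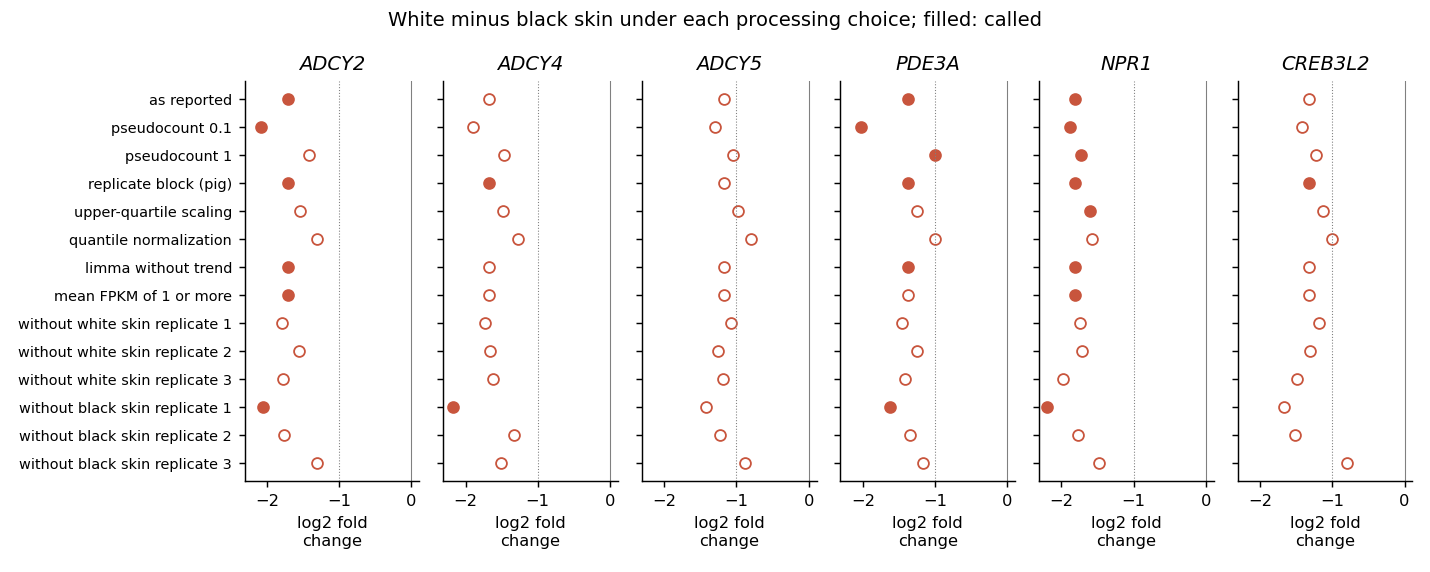
log2 fold change of white minus black skin for the 6 genes under each processing choice, filled where called, with dotted lines at -1. All points lie below 0, and with quantile normalization all 6 are open.

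The direction of the 6 genes was the same in every fit run, and their calls were not. Besides the 3 genes called, ADCY4 and CREB3L2 passed with the pig as a block, which made 5 of 6 (against 6.42% of all mRNAs in this direction). With upper-quartile scaling NPR1 alone passed (against 1.97% of all mRNAs). With quantile normalization none did in limma (against 1.46%), and the log2 fold changes ran from -1.58 to -0.80. There 5 of the 6 had an unadjusted p below 0.05. The share of all mRNAs below that p was not calculated, so nothing is read from this count. No gene passed when any of white skin replicates 1, 2 and 3 or black skin replicates 2 and 3 was left out. The adjusted p without white skin replicate 2 was 0.177 for ADCY2, 0.176 for PDE3A and 0.141 for NPR1 from limma. Without black skin replicate 1, ADCY2, ADCY4, PDE3A and NPR1 passed.

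Markers of some cell types were lower in white skin, as the 6 genes were, and those of others were not. The part of cell types in these results was not tested. Of 13 listed endothelial markers, 4 were called, all lower in white skin, against 3.62% of all mRNAs in this direction. In the blocked fit 7 of the 13 were, against 6.42%, and after quantile normalization 2, against 1.46%. The summed FPKM of the 13 was 116.6 to 130.3 in white skin. In black skin of pigs 1, 2 and 3 it was 202.2, 555.6 and 436.6, and the sum of the 6 genes was 26.4, 48.0 and 76.1. Both sums were lowest in pig 1, but the endothelial sum was highest in pig 2 and that of the 6 genes in pig 3. The endothelial markers did not share 1 order. EGFL7, which weighs most in the difference between pigs 2 and 3, had 70.2, 257.2 and 145.4 FPKM in black skin of pigs 1, 2 and 3. CDH5 and EMCN were also highest in pig 2. PECAM1, KDR, ENG, FLT1, ESAM and ERG were highest in pig 3, as was the sum of the 6 genes. Of 12 melanocyte markers, 6 were called, all lower in white skin, against 3.62%. In the blocked fit 7 of the 12 were, against 6.42%, and after quantile normalization 5, against 1.46%. The sums of the 12 were 14.6 to 15.0 in white skin and 48.9 to 198.2 in black skin. There black skin of pig 1 was the highest sample, where the 6 genes had their lowest black values. These sums include EDNRB, which hardly differed, at 4.92 ± 1.53 FPKM (SD, n = 3) in the white samples and 4.86 ± 1.38 in the black ones. PMEL, of the same list, stood at 0.252 ± 0.124 and 44.4 ± 50.6. The melanocyte marker TYR was listed at 0 in the 3 white samples and in black skin of pig 3, and TYRP1, MLANA, TRPM1 and SLC24A5 were listed at 0 in at least 1 white sample. MITF, the melanocyte factor that CREB induces, had 5.52 ± 1.00 (SD, n = 3) FPKM in the white samples and 13.4 ± 4.44 in the black ones (log2 fold change -1.16, limma, adjusted p = 0.0640, and 0.0440 with the pig as a block).

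Of the 10 adipocyte and 10 fibroblast markers, 6 and 4 were called, all lower in white skin, also against 3.62% of all mRNAs. In the blocked fit these were 9 and 5, against 6.42% of all mRNAs, and after quantile normalization 5 and 5, against 1.46%. The adipocyte sums were 174.2 to 597.7 FPKM in white skin and 937.4 to 2206 in black skin, and the fibroblast sums were 2475 to 5096 and 6514 to 10678. Both lists had their lowest black sample in pig 2. Of the 10 markers of smooth muscle and pericytes, 2 were called lower (PDGFRB and RGS5, of pericytes) and 4 higher (TAGLN, MYH11, CNN1 and DES, of smooth muscle), against 3.62% and 2.62% of all mRNAs. The blocked fit also called 2 lower and 4 higher, and after quantile normalization 1 was called lower and 2 higher. The sum of that list was 3951 to 6250 in white skin and 583.0 to 1700 in black skin, the direction of PRKG1, and it too was lowest in black skin of pig 1. CKM, a marker of skeletal muscle that was 1 of 2 listed of 8, was called higher in white skin. None of the 7 listed keratinocyte markers was called by limma, and none had an unadjusted p below 0.05. Of 8 immune markers 1 was called, lower in white skin (3 in the blocked fit, 0 after quantile normalization in limma), and of 8 markers of sebaceous and sweat glands 1 was called lower and 1 higher. The shares of all mRNAs were 3.62% lower and 2.62% higher, with 6.42% lower in the blocked fit and 1.46% lower after quantile normalization.

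**Figure D5:**
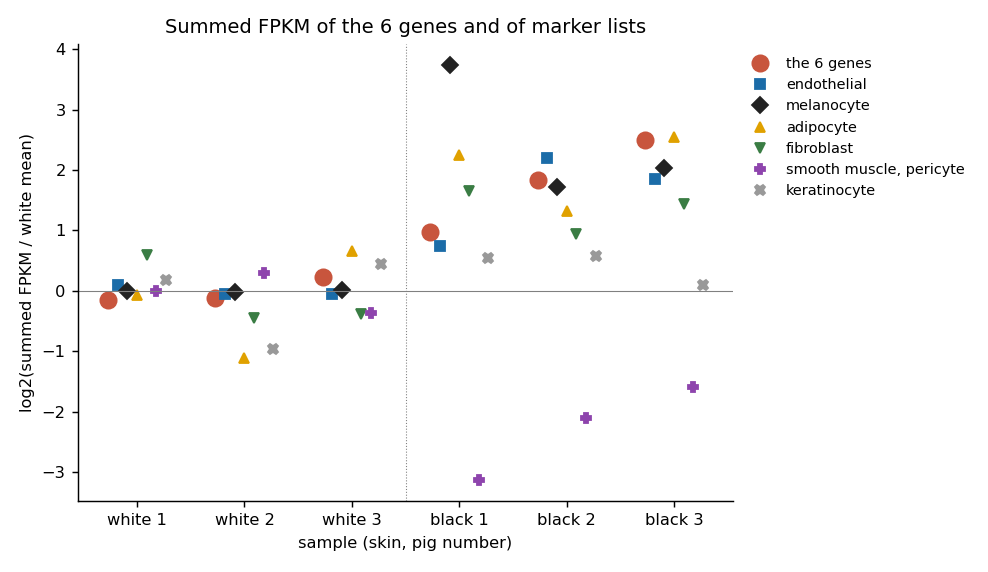
Summed FPKM of the 6 genes and of 6 marker lists in each sample, as log2 of the ratio to the mean of the white samples. Among black samples the 6 genes, the endothelial list and the smooth muscle and pericyte list are lowest in pig 1, and the melanocyte and fibroblast lists are highest there. The sum of the 6 genes is highest in pig 3 and that of the endothelial list, in which EGFL7 weighs heavily, in pig 2. The smooth muscle and pericyte list lies below 0 in all 3 black samples.

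The 3 mRNAs with the pattern most like that of each gene were found by Pearson's r of log2(FPKM + 0.5) over the 6 samples, among 12553 mRNAs with a mean FPKM of at least 1. For ADCY2 they were FAM20A, HHEX and ANGPT2 (r of 0.998, 0.997 and 0.996), and for ADCY4 they were ENSSSCG00000001341, ARVCF and RINL (0.999, 0.998 and 0.998). For ADCY5 they were NUP98, TTC1 and CARMIL1 (0.999, 0.998 and 0.995), and for PDE3A they were PPP1R3G, ICAM1 and PDE1B (0.999, 0.999 and 0.998). For NPR1 they were LRRK1, SNED1 and CDK18 (0.999, 0.998 and 0.998), and for CREB3L2 they were DST, SEL1L3 and EPC2 (0.998, 0.996 and 0.994). Between 275 and 511 mRNAs had an r above 0.95 with a given gene, since all share the difference between the skins and the 6 libraries, so these values describe likeness only. Among the 6 genes themselves, r was highest for ADCY2 and PDE3A (0.991) and lowest for ADCY4 and CREB3L2 (0.786).

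Within 100000 bases of the 6 genes, the lncRNA table lists 3 lncRNAs, none inside a gene. TCONS_00081668, on chromosome 5 from 52407967 to 52408587 and 4916 bases from PDE3A, was listed at 0 in the 3 white samples and at 0.130, 0.104 and 0.726 FPKM in black skin of pigs 1, 2 and 3, without overlap, as for 12.2% of all lncRNAs in either direction. TCONS_00097618, 55216 bases from ADCY4, stood at 0.246, 0.0899 and 0 FPKM in white skin and at 0.101, 1.85 and 0.247 in black skin, with its highest value in black skin of pig 2, as for ADCY4. TCONS_00075502, 98956 bases from NPR1, overlapped between the skins. None of the 3 was called by limma (adjusted p = 0.691 for each, none with an unadjusted p below 0.05), where 1.33% of all lncRNAs were.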

How the data were processed

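The deposited values are FPKM per mRNA and per lncRNA, which the authors calculated with StringTie on strand-specific poly(A) libraries aligned to the pig genome Sscrofa11.1. The paper names TopHat as the aligner, and the submitters' processing notes name HISAT2 2.0.4. An mRNA had to exceed 0.5 FPKM, and an lncRNA 0.1 FPKM, in at least 1 sample to be kept by the authors, a filter that the deposited values obey. FPKM hold no read counts, so no counting interval was given. Each sample's mRNA values add up to 408598 to 501424 FPKM.

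The 2 skins entered a limma 3.58.1 model (R 4.3.3, with a variance trend) with log2(FPKM + 0.5) of the 14900 mRNAs, and another with log2(FPKM + 0.1) of the 7566 lncRNAs, without the pig, since the study compared the 2 groups as such. Called means an adjusted p (Benjamini-Hochberg over the whole table) under 0.05 with a log2 fold change beyond 1 in size. The model was also run on simulated data with independent noise in each mRNA and no effect of the pig or of scaling between libraries. Real samples can differ in both, so nothing about the calls is read from that run. The titles give the pig number, and the white and black samples of pigs 1, 2 and 3 deviated together from their skin's mean (r of 0.208, 0.360 and 0.204 across mRNAs), so the value from a model blocked by pig stands beside genes whose call it changes and lists whose count it moves. Symbols came from a gene table for 12236 mRNAs (82.1%) and, for 1 gene of the lists, from the supplement, and VWF was left out because the sources disagree on its identifier. Positions came from RefSeq for Sscrofa11.1. Ratios within samples were tested by exact permutation (SciPy 1.17.1, Python 3.11.15).

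The 6 genes and the gene lists were chosen with earlier results of these data known. By rule, genes given with values are the 6, up to 10 called genes of the pathway lists with the largest change, and their ADCY, PDE3, NPR and CREB3 relatives. Values given for PDE4D, GUCY1A1, GUCY1B1, PRKAR2B, CREBBP and PRKACA, and for the cell type markers MITF, EDNRB and PMEL, lie outside that rule. Alternatives were pseudocounts of 0.1 and 1 (0.5 and 1 for lncRNAs), the pig as a block, upper-quartile scaling, quantile normalization, no trend, a minimum mean FPKM, and leaving out each sample. Columns of comparisons made by the authors were not used, and no sequence is shown.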

Additional observations from a re-analysis of the deposited data

How the results depend on the processing

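Depth is unknown here, and 3 samples per skin with a wide spread in black skin limit every call. Against 930 mRNAs called, 1439 passed with the replicate block (pig), 852 with upper-quartile scaling, 700 with quantile normalization and 35 to 847 with 1 library left out. Of the 6 genes, 5 were called with the pig as a block, 1 with upper-quartile scaling, 0 with quantile normalization and 0 to 4 with 1 library left out. Of the other pathway genes, 14 were called, 21 with the pig as a block, 9 with upper-quartile scaling, 10 with quantile normalization and 0 to 15 with 1 library left out. Against 101 lncRNAs called, the number was 19 with a pseudocount of 1, 243 with the pig as a block, 12 without the trend and 0 to 5 with 1 library left out. The cause of these changes was not tested.

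Across the other choices, the log2 fold changes of the 6 genes kept their direction. ADCY3 reversed with quantile normalization (0.23) and without black skin replicate 3 (0.11), and ADCY6 with upper-quartile scaling (0.14), quantile normalization (0.26), without white skin replicate 1 (0.028) and without black skin replicate 3 (0.37). CREB3 reversed without white skin replicate 3. With 1 library left out, the log2 fold change lay between -0.43 and 0.11 for ADCY3, between -0.40 and 0.37 for ADCY6 and between -0.033 and 0.21 for CREB3, and the log2 difference in the share of ADCY4 between -0.35 and 0.051. The block changed no other call of the 6 genes. With the pig as a block (exact sign-flip test over 3 pigs, smallest p 0.25), the log2 difference was -0.57 for the ratio of PDE3A to the cyclase sum. That of the sum itself was -1.75, in a direction fixed by the choice of genes, and nothing is read from a test of it.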
